A study of Mus musculus with 45 samples.

Results

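The enzymes and regulators of de novo lipogenesis, the synthesis of fatty acids from carbohydrate, were followed in mice of 2 inbred strains on 2 diets, over their liver, skeletal muscle and epididymal fat. The set holds 10 genes: the enzymes and transporters Pklr, Slc25a1, Acly, Me1, Fasn, Elovl6 and Gpam, the transcription factor gene Srebf1, and the regulators Thrsp and Mid1ip1. They were chosen by gene symbol, and each of the 14 probe sets that the array annotation gives to one of them alone was kept, out of 10833 probe sets of 8251 genes that carry a single symbol. Pklr, Elovl6, Mid1ip1 and Slc25a1 each had 2 probe sets, and all 14 are described.

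Cells make fatty acids from glucose by passing pyruvate into mitochondria, exporting the citrate formed there, and cleaving it to acetyl-CoA in the cytosol, where fatty acid synthase joins the acetyl units with NADPH as the reductant. Insulin and dietary carbohydrate raise the transcription of these genes, in large part through SREBP-1c, the product of Srebf1. Liver and adipose tissue are the main sites of the pathway in the mouse, and liver-type pyruvate kinase, the product of Pklr, is found in few tissues besides liver. The product of Thrsp, also called Spot 14, and its paralogue from Mid1ip1 act on lipogenesis, the second by promoting the assembly of acetyl-CoA carboxylase into its active polymer.

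RNA came from C57Bl/6 mice, written B6 below, and 129S6/SvEvTac mice, written 129S6, at 6 months of age, on the diets labelled low-fat and high-fat. The labels name no allele or agent besides strain and diet. The study's text describes 1 diet, called standard, in which fat supplied 21%, protein 22% and carbohydrate 57% of the calories, and does not say which label it belongs to. Each of the 45 arrays was hybridised with 25 µg of RNA pooled from 2 to 3 mice, so an array stands for a pool and not for an animal. The 12 groups of tissue, strain and diet held 4 arrays each, except B6 low-fat muscle and the low-fat and high-fat groups of 129S6 fat, which held 3. Values are log2 signals, on which a difference of 1 is a doubling, and levels of different probe sets cannot be set against each other.

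The proximal promoters show where the factors that act on this pathway could bind, so the 250 bases before each RefSeq transcription start of the 10 genes, 15 windows in all, were read from the GRCm38.p6 build. They were searched on both strands for TCACNCCAC (a form of the sterol regulatory element to which SREBPs bind), CACGTG (the E-box of USF factors), CCAAT (the NF-Y box) and GGGCGG (the GC box of Sp1). CCAAT was in 8 of the 15 windows, of 7 genes, against 33.8% of 32851 promoters of that length, and GGGCGG was in 7 windows of 6 genes, against 32.7%. CACGTG was in 1 window, that of Slc25a1, against 6.02% of all promoters, and TCACNCCAC was in no member window, against 1.05%. The windows of Fasn and Thrsp are printed because these genes had the largest strain differences in liver on the low-fat diet, and that of Slc25a1 because it holds the E-box. They lie on the minus strand at chr11:120824548-120824797 (Fasn), chr7:97417551-97417800 (Thrsp) and chr16:17928220-17928469 (Slc25a1), and read 5′ to 3′ towards the start of transcription, with every match on either strand in capitals. CCAATTGG in Fasn holds 1 NF-Y box on each strand, overlapping. A match is a stretch of letters and not a measured site.
Fasn: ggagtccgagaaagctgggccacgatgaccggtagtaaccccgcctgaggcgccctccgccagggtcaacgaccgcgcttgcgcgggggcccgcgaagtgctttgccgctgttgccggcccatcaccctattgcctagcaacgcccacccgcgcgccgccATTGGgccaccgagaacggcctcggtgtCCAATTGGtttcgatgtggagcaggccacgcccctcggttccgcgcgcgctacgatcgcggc
Thrsp: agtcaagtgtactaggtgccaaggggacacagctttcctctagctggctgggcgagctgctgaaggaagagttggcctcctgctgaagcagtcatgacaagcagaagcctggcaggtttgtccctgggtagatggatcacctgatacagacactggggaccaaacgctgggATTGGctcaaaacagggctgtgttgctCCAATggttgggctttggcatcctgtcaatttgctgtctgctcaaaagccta
Slc25a1: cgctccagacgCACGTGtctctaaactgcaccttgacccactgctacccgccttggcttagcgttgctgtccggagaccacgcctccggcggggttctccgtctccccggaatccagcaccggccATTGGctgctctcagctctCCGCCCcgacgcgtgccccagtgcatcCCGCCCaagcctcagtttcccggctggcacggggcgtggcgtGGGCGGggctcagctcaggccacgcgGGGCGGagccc

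The deposited arrays had near-equal medians, from 6.07 to 6.24 log2. The summed marker signals fitted the labelled tissues: the hepatocyte markers measured (9 of 10) summed to 15.0 to 15.6 log2 in liver, the myofibre markers (10 of 10) to 14.2 to 16.1 in muscle and the adipocyte markers (8 of 10) to 13.7 to 14.4 in fat. The signal of the 3′ minus that of the 5′ Gapdh control probe sets, which rises with RNA degradation, ranged from -0.06 to 6.03 and was above 3 on 6 arrays, 1 of liver, 2 of muscle and 3 of fat. The spread of log2 values over probe sets was 1.59 to 1.70 on the 4 B6 high-fat muscle arrays and 1.57 on the 129S6 low-fat muscle array 9, against at least 1.80 on every other array. Code numbers in the sample names fell into 3 runs in liver and 2 in fat, and what a run stands for is not stated. Among the livers, the 4 of B6 on low fat formed a run of their own, so that run and group cannot be told apart there. Their code numbers follow directly on those of the muscle arrays. On high fat, the B6 and 129S6 livers share no run.

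Between tissues, averaged over strains and diets, Fasn, Acly, Me1, Thrsp and Mid1ip1 were highest in fat, Elovl6 and Pklr were highest in liver, and Srebf1, Slc25a1 and Gpam were not separated between fat and liver. Averaged over the 4 groups of each tissue, Fasn, the synthase itself, stood at 11.84 log2 in fat, 9.64 in liver and 8.71 in muscle. Every fat array was above every liver array, and the fat mean was 4.59-fold the liver mean (adjusted p = 4.18e-14 by limma, Benjamini-Hochberg over all 10833 probe sets, as for every adjusted p below). Against liver, 10 of the 14 member probe sets differed, 6 higher and 4 lower in fat, where 55.5% of all probe sets differed. The higher ones in fat besides Fasn were Me1 by 1.39 ± 0.17 log2 (SE), Thrsp by 1.15, Acly by 0.95, and both Mid1ip1 probe sets by 0.79 and 0.40. The Thrsp difference pools unlike strains: in B6 its means were 10.63 and 10.51 in fat and 10.93 and 10.45 in liver on low and high fat, while in 129S6 they were 11.56 and 11.05 in fat and 8.43 and 9.37 in liver. In B6 on low fat, Me1 stood at 9.59 in fat and 9.91 in liver, and Acly at 9.84 and 9.90. The smaller Mid1ip1 difference, on 95134_at (adjusted p = 0.0319), lost its call without any one of 6 arrays, liver 129S6 low-fat 11 or fat B6 low-fat 1, B6 high-fat 2 or 6, 129S6 low-fat 10 or 129S6 high-fat 14. Pklr was lower in fat on both probe sets, with fat minus liver differences of -2.68 on 101471_at and -0.67 on 101472_s_at. The first is a lower bound in size, since 101471_at read 4.51 to 5.40 on all fat and muscle arrays, near the low end of the scale. Elovl6 was lower too, at -0.69 on 94418_at and -0.32 on 103665_at. These averages also pool unlike strains. In 129S6, 103665_at was higher in fat, at 6.95 and 7.09 on low and high fat against 6.70 and 6.73 in liver. There 94418_at stood at 5.70 and 5.61 in fat and 5.70 and 5.80 in liver. Srebf1 stood at 10.03 in fat and 9.94 in liver (difference 0.09, 95% interval -0.07 to 0.26, adjusted p = 0.331), and Slc25a1 and Gpam did not pass either. The Srebf1 and Gpam averages pool opposite directions on low fat. Srebf1 stood there at 9.86 in fat and 10.21 in liver in B6, and at 10.54 and 9.34 in 129S6. Gpam stood at 8.76 and 10.10 in B6, and at 9.83 and 9.32 in 129S6. On high fat, Srebf1 was lower in fat in both strains, at 9.78 against 10.10 in B6 and 9.95 against 10.10 in 129S6.

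Against muscle, 13 of the 14 probe sets differed in fat, 12 of them higher, where 70.8% of all probe sets differed. Fasn was 8.72-fold, Acly, which cleaves citrate to acetyl-CoA, 6.85-fold and Thrsp 6.11-fold higher in fat than in muscle, and Pklr 101472_s_at was lower in fat (-0.25 log2). In liver 12 of the 14 were higher than in muscle, where 66.5% of all probe sets differed, and none was lower. The largest of these differences were Pklr 101471_at by 2.46, Slc25a1 94807_at, for the mitochondrial citrate carrier, by 2.01, and Acly by 1.83 log2. Me1 stood at 8.90 in liver and 9.23 in muscle (adjusted p = 0.0704) and Mid1ip1 95134_at at 7.43 and 7.15 (adjusted p = 0.104). In order of its mean over both strains, Fasn ran fat, liver, muscle, and each neighbouring pair of tissues differed. The means of 129S6 did not keep that order on low fat, with 8.45 in liver and 9.58 in muscle, and on high fat they were 9.25 and 9.16, while those of B6 were 10.42 in liver on both diets and 8.43 and 7.67 in muscle. Srebf1 ran fat, liver, muscle with fat and liver not separated.

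**Figure D1:**
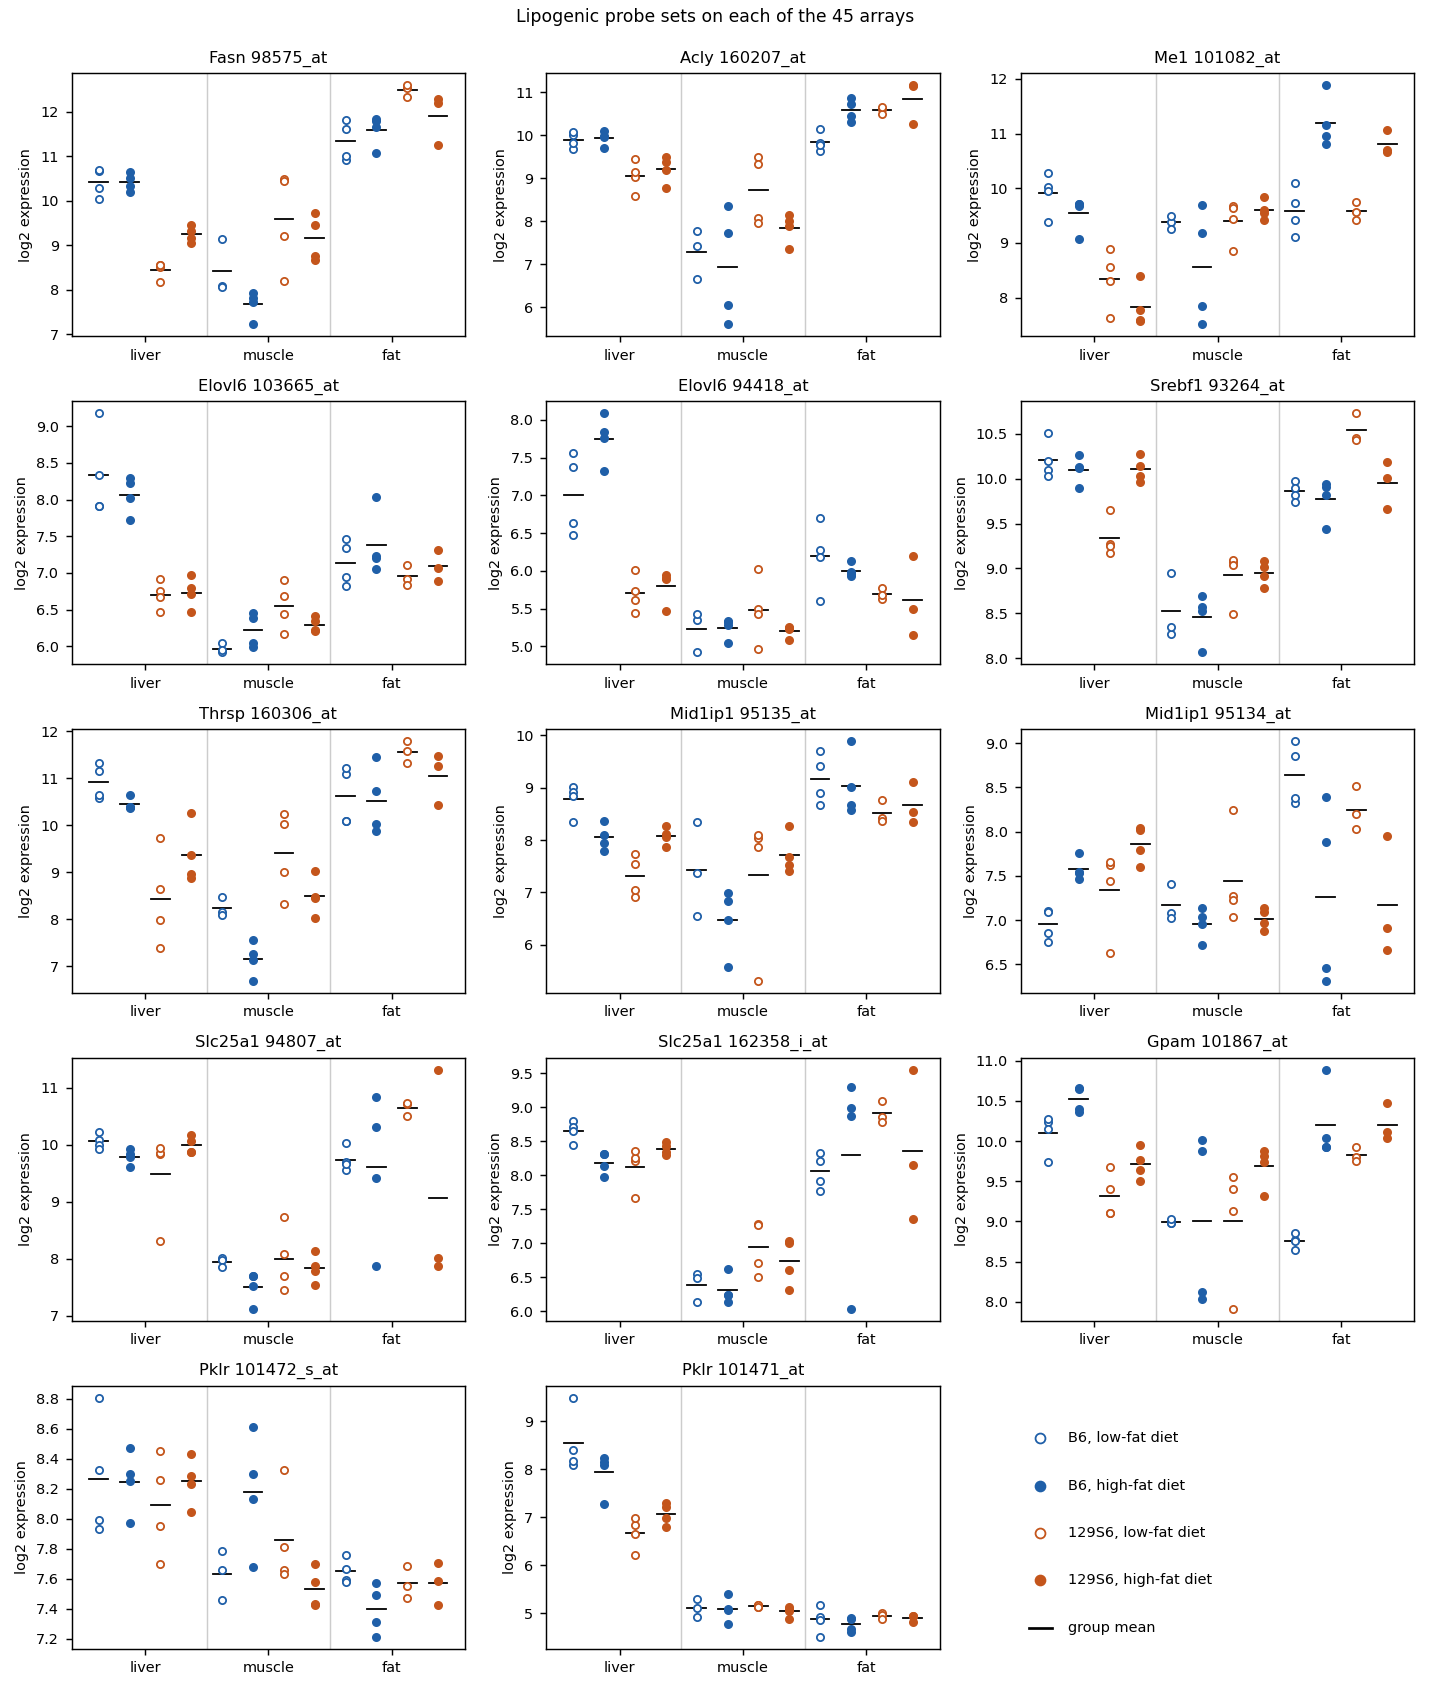
Log2 signal of each member probe set on every array, by tissue, with B6 in blue and 129S6 in orange, low-fat as open and high-fat as filled points, and a bar for each group mean. In liver the B6 low-fat points of Fasn (10.04 to 10.69) lie above all 129S6 points (8.17 to 9.45), while in fat the 129S6 low-fat points (12.33 to 12.60) lie above all B6 points.

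Between the strains, liver on the low-fat diet held the most member calls: 11 of the 14 probe sets, at least 1 for each of the 10 genes, were higher in B6 than in 129S6 and none was lower, where 12.0% of all probe sets differed in either direction. The median difference over the 14 was 1.09 log2, against -0.04 over all probe sets. In all 11 the 4 B6 arrays lay above the 4 129S6 arrays. That adds little to the calls, since these 11 were picked by them. Overlap was not counted over all probe sets, here or in any comparison below. Fasn read 10.66, 10.69, 10.30 and 10.04 in B6 and 8.17, 8.52, 8.55 and 8.56 in 129S6. The difference was 1.97 ± 0.15 log2 (SE), or 3.92-fold (adjusted p = 1.62e-07). In bulk tissue, fewer cells of a type and less RNA per cell cannot be told apart.

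Among the regulators, Thrsp read 11.16, 11.33, 10.58 and 10.65 in B6 and 7.39, 7.98, 9.73 and 8.64 in 129S6, the widest spread within a group among these genes in liver. Its difference, 2.50 ± 0.38 log2, was 5.65-fold (adjusted p = 0.000427). Srebf1 read 10.51, 10.20, 10.10 and 10.03 in B6 and 9.18, 9.27, 9.25 and 9.65 in 129S6. The B6 level of this transcription factor gene was 1.83-fold higher (0.87 ± 0.12 log2, adjusted p = 0.000231). Mid1ip1 95135_at read 9.02, 8.91, 8.35 and 8.84 in B6 and 6.92, 7.04, 7.74 and 7.54 in 129S6, a 2.77-fold difference (adjusted p = 5.68e-05).

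Of the genes that carry carbon and reducing power to the synthase, Pklr 101471_at, for the pyruvate kinase that ends glycolysis in liver, read 8.41, 9.49, 8.08 and 8.17 in B6 and 6.83, 6.65, 6.22 and 6.99 in 129S6. It was 3.64-fold higher in B6 (1.86 ± 0.27 log2, adjusted p = 0.000306). Me1, the cytosolic malic enzyme that makes NADPH, read 10.02, 10.27, 9.39 and 9.95 in B6 and 8.30, 7.62, 8.88 and 8.55 in 129S6. The Me1 difference was 2.97-fold (adjusted p = 0.000809), while Acly and Slc25a1 162358_i_at differed less. Acly read 10.01, 10.07, 9.67 and 9.82 against 9.02, 8.58, 9.45 and 9.13, 1.80-fold (adjusted p = 0.00432). Slc25a1 162358_i_at read 8.79, 8.71, 8.45 and 8.65 against 8.21, 8.25, 7.66 and 8.35, 1.45-fold (adjusted p = 0.0132).

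Downstream of the synthase, both Elovl6 probe sets, for the elongase that turns palmitate into stearate, were higher in B6. On 103665_at B6 read 8.33, 9.17, 7.91 and 7.92 and 129S6 6.47, 6.76, 6.92 and 6.67, a 3.10-fold difference (adjusted p = 0.000128). On 94418_at B6 read 7.38, 7.56, 6.47 and 6.63 and 129S6 5.74, 5.61, 5.44 and 6.01, a 2.48-fold difference (adjusted p = 0.00104). The 2 probe sets thus gave the same direction at similar size. Gpam, the mitochondrial acyltransferase that starts glycerolipid synthesis, read 10.24, 10.27, 9.74 and 10.15 in B6 and 9.11, 9.11, 9.67 and 9.40 in 129S6, a 1.72-fold difference (adjusted p = 0.00215).

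The 3 probe sets that did not pass were Mid1ip1 95134_at (-0.39, adjusted p = 0.173), Slc25a1 94807_at (0.57, adjusted p = 0.148) and Pklr 101472_s_at (0.17, adjusted p = 0.562). With any one of the 8 arrays left out, 11 or 12 member probe sets passed. With the code-number run as a random block, 5 passed: Fasn (adjusted p = 0.000159), Mid1ip1 95135_at (0.00712), Thrsp (0.0285), Elovl6 103665_at (0.0308) and Srebf1 (0.0398). This block cannot separate run from group, since the B6 low-fat livers share no run with other livers. The differences stayed at 1.97 for Fasn and 2.50 for Thrsp. The Gapdh 3′ minus 5′ signal was 0.82 to 1.69 in these B6 livers and 0.13 to 0.41 in 129S6, apart from 3.26 in array 11. With that signal as a covariate, 12 were higher in B6, Fasn by 1.96 and Thrsp by 2.35 log2, and Mid1ip1 95134_at was lower (-0.30, adjusted p = 0.0396). The spread of log2 values was 1.91 to 1.98 on the B6 low-fat livers and at most 1.90 on all other livers. With it as a covariate 8 passed, and Acly (0.58, adjusted p = 0.165), Me1 (1.00, 0.0818) and Gpam (0.49, 0.134) did not.

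Marker sums of other cell types differed with the strain in these livers, though few single markers were called. The adipocyte sum was 10.2 to 10.8 log2 in B6 and 9.66 to 9.91 in 129S6, with 3 of 8 called higher and 1 lower in B6, Cidea at 9.33 and 5.82, and Adipoq, which defines adipocytes, at 4.92 and 5.39. The erythroid sum (3 of 5 markers measured) was 11.7 to 12.7 in B6 and 11.2 to 11.6 in 129S6, with 1 of 3 called higher in B6. The macrophage sum was 10.45 to 10.71 and 9.91 to 10.44, with 0 of 9 called. The myofibre sum was 10.1 to 10.3 and 10.6 to 10.7, with 1 of 10 called lower in B6. The part of these markers in the result was not tested.

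**Figure D2:**
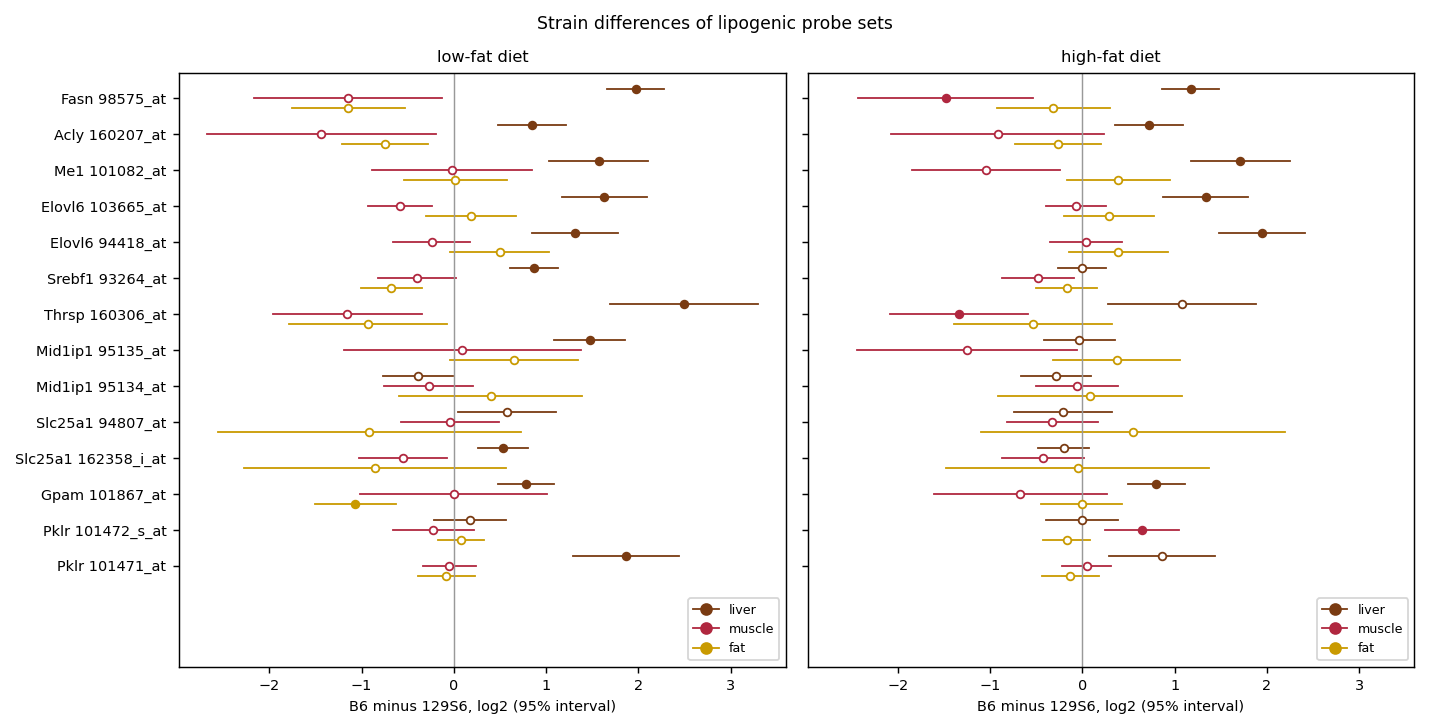
B6 minus 129S6 difference in log2 signal for each member probe set, with its 95% interval, by tissue and diet; filled points have an adjusted p under 0.05. On the low-fat diet 11 of 14 points are filled and positive in liver, and 1 is filled, and negative, in fat.

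On the high-fat diet the strain difference in liver was found for fewer members: 6 probe sets of 5 genes were higher in B6 and none lower, where 4.24% of all probe sets differed. Elovl6 94418_at read 7.33, 8.09, 7.84 and 7.76 in B6 and 5.91, 5.95, 5.89 and 5.47 in 129S6, a 3.86-fold difference (adjusted p = 3.75e-05), and 103665_at differed 2.52-fold (adjusted p = 0.00134). Me1 read 9.07, 9.68, 9.70 and 9.72 in B6 and 7.58, 7.77, 8.40 and 7.57 in 129S6, a 3.28-fold difference (adjusted p = 0.000562). Fasn read 10.20, 10.33, 10.51 and 10.65 in B6 and 9.45, 9.17, 9.32 and 9.05 in 129S6, a 2.26-fold difference (adjusted p = 9.53e-05). In each of these the groups did not overlap, which again adds little, since they were picked by their calls. Gpam was 1.74-fold (adjusted p = 0.00325) and Acly 1.65-fold (adjusted p = 0.0241) higher in B6.

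None of the 3 regulators passed. Srebf1 stood at 10.10 in both strains on the high-fat diet (difference -0.00, 95% interval -0.26 to 0.26, adjusted p = 0.996), and Mid1ip1 95135_at at 8.05 and 8.08 (adjusted p = 0.953). Thrsp read 10.37, 10.64, 10.38 and 10.39 in B6 and 8.97, 8.87, 10.25 and 9.37 in 129S6. These groups did not overlap, but the difference of 1.08 log2 did not pass (adjusted p = 0.133). Nor did Pklr 101471_at, at 7.94 in B6 and 7.08 in 129S6 (adjusted p = 0.0903). Both passed, for a count of 8, with only these groups in the fit (adjusted p = 0.0158 for Thrsp and 0.0165 for Pklr), with the Gapdh signal as a covariate (0.0323 and 0.0385) and without the arrays of Gapdh signal above 3 (0.0237 and 0.0493). With the code-number run as a fixed block, 1 probe set passed, Elovl6 94418_at (1.90 log2, adjusted p = 0.0171), and Fasn gave 0.96 (adjusted p = 0.0577). The B6 and 129S6 high-fat livers share no run, so this block compares them only through the 129S6 low-fat livers, which lie in both runs. With the run as a random block, Elovl6 94418_at and Fasn passed, with adjusted p = 0.00289 and 0.0115. Thrsp reversed to -0.42 with the fixed block (adjusted p = 0.662) and gave 0.26 with the random block (0.924). Pklr 101471_at gave 1.00 with the fixed block (adjusted p = 0.294) and 0.94 with the random block (0.445). Acly lost its call when any one of 5 arrays was left out, B6 14, 15 or 16 or 129S6 9 or 10. In these livers the adipocyte sum was 10.7 to 11.1 in B6 and 9.80 to 10.1 in 129S6, with 3 of 8 markers called higher in B6. The macrophage sum was 10.6 to 12.3 and 10.1 to 10.5, with 1 of 9 called higher. The erythroid sum was 11.2 to 11.5 and 11.7 to 12.2, with 1 of 3 called lower. Their part in the result was not tested.

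The diet difference, high-fat minus low-fat, was positive in 129S6 liver for 13 of the 14 probe sets, with a median of 0.40 log2 against 0.01 over all probe sets, and 2 passed, where 0.111% of all probe sets did. Srebf1 read 9.18, 9.27, 9.25 and 9.65 on low fat and 10.14, 10.27, 9.96 and 10.03 on high fat, and rose 1.70-fold (0.76 ± 0.12 log2, adjusted p = 0.0241). Fasn rose 1.74-fold (0.80 ± 0.15, adjusted p = 0.0413), from 8.17 to 8.56 on low fat to 9.05 to 9.45 on high fat. For both genes the diets did not overlap. Mid1ip1 95135_at also did not overlap, at 6.92 to 7.74 and 7.87 to 8.28, but its difference of 0.77 did not pass (adjusted p = 0.184). Thrsp differed by 0.93 (95% interval 0.13 to 1.74, adjusted p = 0.744), and Me1 was the single probe set below 0 (-0.51, adjusted p = 0.846).

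The Srebf1 call was lost without any one of 4 arrays, low-fat 5 or high-fat 7, 8 or 10, with adjusted p from 0.00513 to 0.102 over the 8 arrays left out. The Fasn call was lost without any one of 7 of the 8 arrays, all but low-fat 6. One run of code numbers held 2 low-fat and all 4 high-fat 129S6 livers. Within it Srebf1 stood at 9.22 and 10.10, Fasn at 8.35 and 9.25, and Mid1ip1 95135_at at 6.98 and 8.08. With the run as a fixed block the difference was 0.88 for Srebf1 (adjusted p = 0.0229), 1.11 for Mid1ip1 95135_at (0.0185) and 0.90 for Fasn (0.0769). The erythroid sum was 11.2 to 11.6 on low fat and 11.7 to 12.2 on high fat, and no marker of the cell type lists was called.

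In B6 liver 4 probe sets of 3 genes differed with diet, 2 in each direction, where 16.2% of all probe sets did, and neither Fasn nor Srebf1 was among them. Fasn stood at 10.42 on both diets (difference 0.00, 95% interval -0.31 to 0.31, adjusted p = 0.998), and Srebf1 at 10.21 on low fat and 10.10 on high fat (-0.11, 95% interval -0.37 to 0.15). Mid1ip1 95135_at fell by 0.73 ± 0.18 log2 (adjusted p = 0.0121), from 8.35 to 9.02 on low fat to 7.79 to 8.36 on high fat, with the ranges overlapping between 8.35 and 8.36. Its other probe set, 95134_at, rose by 0.62 (adjusted p = 0.0266), from 6.75 to 7.11 to 7.46 to 7.76. Slc25a1 162358_i_at fell by 0.47 (adjusted p = 0.0223), and Elovl6 94418_at rose by 0.74 (adjusted p = 0.0299) while 103665_at gave -0.27 (adjusted p = 0.431). Gpam ranged from 9.74 to 10.27 on low fat and from 10.36 to 10.66 on high fat without overlap, and its difference of 0.42 missed the threshold (adjusted p = 0.059) but passed after quantile normalization (0.76, adjusted p = 0.00128).

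Of these B6 liver calls, that of Mid1ip1 95135_at held without any one of the 8 arrays. That of 95134_at was lost without low-fat 1 or 4 or high-fat 15 or 16 (adjusted p up to 0.0904), that of Slc25a1 162358_i_at without low-fat 1, 2 or 4 or high-fat 13 or 14 (up to 0.0697), and that of Elovl6 94418_at without low-fat 3 or 4 or high-fat 14, 15 or 16 (up to 0.109). The Gapdh 3′ minus 5′ signal was 0.82 to 1.69 on low fat and 0.22 to 0.35 on high fat. With it as a covariate, Mid1ip1 95134_at gave 0.32 (adjusted p = 0.0477) in place of 0.62, and Elovl6 94418_at gave 0.65 (0.0674). With the spread of the arrays as a covariate, Mid1ip1 95135_at gave -0.47 (adjusted p = 0.227), 95134_at 0.30 (0.438) and Elovl6 94418_at 0.70 (0.165), none of which passed, while Slc25a1 162358_i_at did. With the run as a random block none of the 4 passed. The myofibre sum was 10.1 to 10.3 on low fat and 10.5 to 11.3 on high fat, with 3 of 10 markers called higher, the erythroid sum 11.7 to 12.7 and 11.2 to 11.5, with 2 of 3 called lower, and the hepatocyte sum 15.42 to 15.48 and 14.96 to 15.39. Their part in the result was not tested.

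The diet differences of the strains were then set against each other. In liver 4 probe sets of 4 genes gave a more negative diet difference in B6 than in 129S6, and none a more positive one, where 4.56% of all probe sets differed. Mid1ip1 95135_at gave -1.51 ± 0.26 log2 (adjusted p = 0.0033), Srebf1 -0.87 ± 0.17 (0.00885), Slc25a1 162358_i_at -0.74 ± 0.18 (0.0296) and Fasn -0.80 ± 0.21 (0.0373). Of these, Srebf1 and Fasn had risen in 129S6 and did not pass in B6, and Mid1ip1 95135_at and Slc25a1 162358_i_at had fallen in B6 and did not pass in 129S6. The Srebf1 and Mid1ip1 calls held without any one of the 16 arrays. The Fasn call was lost without any one of 9 (B6 low-fat 1 or 2, B6 high-fat 13, 14 or 15, 129S6 low-fat 5, 129S6 high-fat 7, 8 or 9), with adjusted p up to 0.0806. The Slc25a1 call was lost without any one of 8 (B6 low-fat 1, 2 or 4, B6 high-fat 13 or 14, 129S6 high-fat 7, 9 or 10), with adjusted p up to 0.0613. With the run as a random block none passed (Mid1ip1 95135_at adjusted p = 0.0525). After quantile normalization Mid1ip1 95135_at was the 1 that passed.

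**Figure D3:**
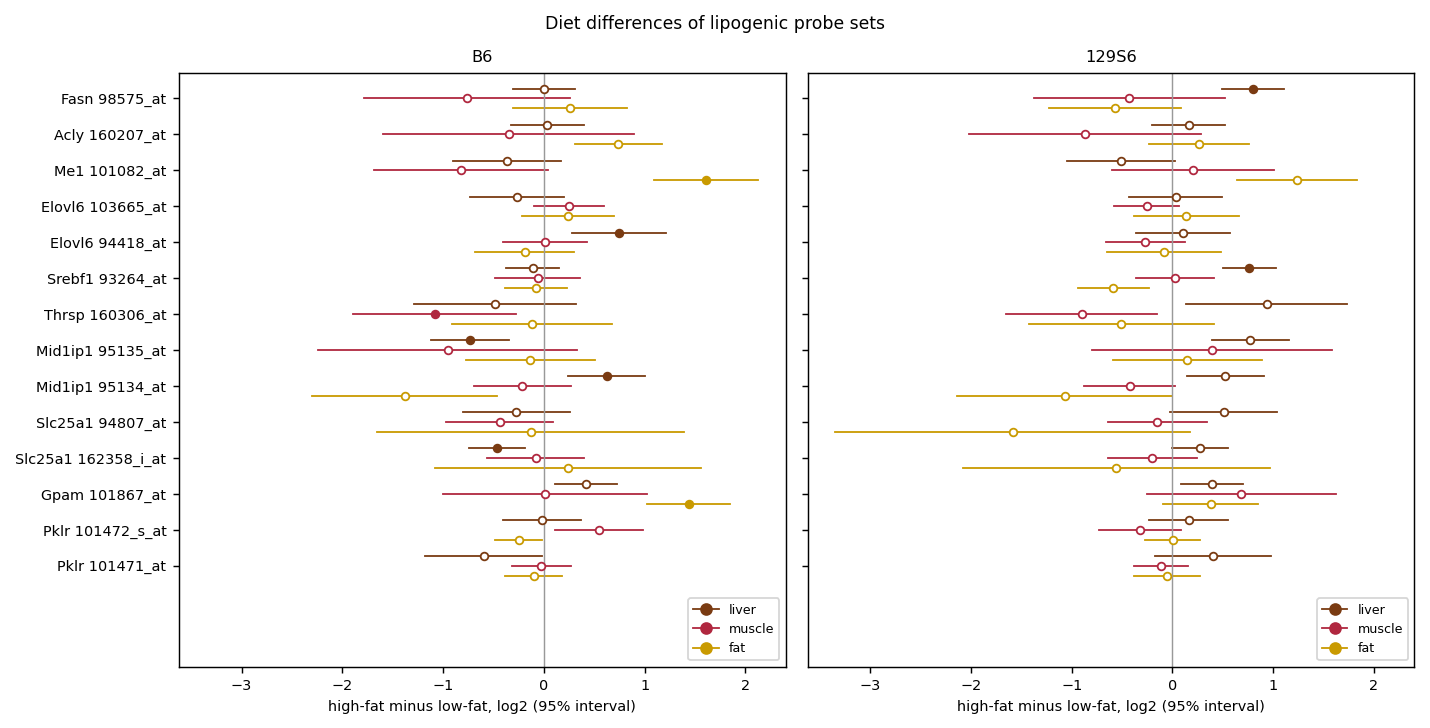
High-fat minus low-fat difference in log2 signal for each member probe set, with its 95% interval, by tissue and strain; filled points have an adjusted p under 0.05. Srebf1 and Fasn are filled and positive in 129S6 liver, Me1 and Gpam are filled and positive in B6 fat, and Thrsp is filled and negative in B6 muscle.

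In epididymal fat the calls for diet were those of Me1 and Gpam. In B6 fat these 2 probe sets rose on the high-fat diet and none fell, where 0.185% of all probe sets differed. Gpam read 8.64, 8.77, 8.76 and 8.86 on low fat and 9.93, 9.93, 10.89 and 10.04 on high fat, and rose 2.71-fold (1.44 ± 0.19 log2, adjusted p = 0.0113). Me1 read 9.11, 9.43, 9.73 and 10.09 on low fat and 10.80, 10.96, 11.88 and 11.15 on high fat, and rose 3.05-fold (1.61 ± 0.24, adjusted p = 0.019). Neither gene's diets overlapped. Acly ranged from 9.63 to 10.15 on low fat and 10.30 to 10.86 on high fat, which did not overlap, with a difference of 0.74 (adjusted p = 0.17). Fasn stood at 11.34 and 11.60 (adjusted p = 0.614) and Srebf1 at 9.86 and 9.78 (adjusted p = 0.778).

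B6 high-fat array 7, the highest for both genes, had the largest Gapdh 3′ minus 5′ signal of all arrays, 6.03. Without the arrays above 3, the differences were 1.38 for Me1 (adjusted p = 0.00622) and 1.21 for Gpam (0.000229). The Gpam call was lost without B6 low-fat array 3, and the Me1 call without any one of low-fat 1, 3 or 4 or high-fat 8. With only these 2 groups in the fit, Me1 gave adjusted p = 0.136 and Gpam 0.109. The macrophage markers (9 of 9 measured) summed to 11.9 to 12.6 log2 on low fat and 12.5 to 13.3 on high fat, and their part in the result was not tested.

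In 129S6 fat no member passed for diet by limma, where 0.572% of all probe sets did. An unadjusted p under 0.05 was found for 3 members and for 1503 of all 10833 probe sets. Me1 read 9.56, 9.43 and 9.74 on low fat and 11.06, 10.67 and 10.70 on high fat, with no overlap and a difference of 1.24 (95% interval 0.64 to 1.83, adjusted p = 0.073). Srebf1 read 10.45, 10.43 and 10.73 on low fat and 10.00, 9.66 and 10.19 on high fat, also without overlap (-0.59, adjusted p = 0.158). The Gapdh 3′ minus 5′ signal was 0.07 to 0.24 on low fat and 5.81, 5.93 and 0.37 on high-fat arrays 12, 13 and 14. Fits without the arrays above 3 thus keep array 14 alone in that group. The part of RNA quality in these values was not tested. The diet differences of the strains did not differ for any member in fat by limma, where 0% of all probe sets passed. Of all 10833 probe sets 315 had an unadjusted p under 0.05, among them 2 members. For Gpam, the larger of these, the diet difference was 1.44 in B6 and 0.38 in 129S6, 1.06 apart (95% interval 0.43 to 1.68, adjusted p = 0.997).

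Between the strains on low fat, Gpam was the 1 member that differed in fat, where 0.849% of all probe sets did. It read 8.64, 8.77, 8.76 and 8.86 in B6 and 9.80, 9.75 and 9.93 in 129S6, and was 2.10-fold lower in B6 (-1.07 ± 0.20 log2, adjusted p = 0.0277). The call was lost without any one of the 7 arrays, with adjusted p from 0.063 to 0.154. Fasn read 10.91, 11.01, 11.61 and 11.82 in B6 and 12.53, 12.33 and 12.60 in 129S6, again with B6 wholly below (-1.15, 95% interval -1.76 to -0.53, adjusted p = 0.106). Srebf1 (-0.68, adjusted p = 0.0716), Acly (-0.75, adjusted p = 0.198) and Thrsp (-0.93, adjusted p = 0.536) were likewise apart with B6 below. How many of all probe sets were apart was not counted, so this does not stand in for a call. Without the 3 fat arrays with Gapdh signals above 3, none of which belongs to these groups, 5 members passed with B6 lower: Gpam, Srebf1 (adjusted p = 0.00218), Fasn (0.00416), Slc25a1 162358_i_at (0.0053) and Acly (0.00626).

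Markers of other cell types moved with the strain in low-fat fat. The hepatocyte list summed to 11.3 to 11.8 in B6 and 12.9 to 13.5 in 129S6, the macrophage list to 11.9 to 12.6 and 10.8 to 11.3, with 4 of 9 called higher in B6, the lymphocyte list (5 of 7 measured) to 11.2 to 11.8 and 9.95 to 10.5, and the epididymis list (3 of 7 measured) to 8.13 to 13.4 and 7.29 to 11.3. Their part was not tested. Run and strain nearly coincide in fat, since all B6 arrays and the 129S6 low-fat array 9 share a run of code numbers. With the run as a fixed block Gpam gave -1.04 (adjusted p = 0.453), and no member passed. On high fat no member differed between the strains in fat by limma, where 0.434% of all probe sets did. No member had an unadjusted p under 0.05, where 944 of all 10833 probe sets had. Gpam stood at 10.20 in B6 and 10.21 in 129S6 on that diet (95% interval of the difference -0.45 to 0.43). The arrays with Gapdh signals of 6.03 (B6 7), 5.81 (129S6 12) and 5.93 (129S6 13) enter this comparison.

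Muscle gave 4 member calls in all, each involving the B6 high-fat arrays, those with the narrow spread of signals. In B6 muscle Thrsp read 8.48, 8.16 and 8.09 on low fat and 7.56, 7.13, 6.70 and 7.27 on high fat, and fell by 1.08 ± 0.38 log2, 2.12-fold (adjusted p = 0.0486), the 1 member called where 26.0% of all probe sets were. Fasn also did not overlap, at 8.08 to 9.14 and 7.23 to 7.92, without passing (-0.76, adjusted p = 0.221). The median diet difference over the 14 was -0.15 log2 against 0.18 over all probe sets. The Thrsp call was lost without any one of 6 of the 7 arrays, all but high-fat 5. Marker sums were lower on high fat too. The adipocyte sum was 11.0 to 11.4 on low fat and 10.5 to 10.9 on high fat (3 of 8 called lower), the erythroid sum 12.3 to 13.8 and 9.23 to 10.5 (2 of 3 called lower), the lymphocyte sum 10.3 to 10.6 and 9.22 to 9.61, and the myofibre sum 15.8 to 16.1 and 15.1 to 15.8 (3 of 10 called lower). Their part in the result was not tested. In 129S6 muscle no member passed for diet by limma, where 0% of all probe sets did. Of all 10833 probe sets 205 had an unadjusted p under 0.05, among them 1 member. That was Thrsp, with 8.33, 10.24, 9.01 and 10.03 on low fat and 8.45, 8.03, 9.02 and 8.48 on high fat (-0.90, adjusted p = 0.991).

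Between the strains on high fat, 3 members differed in muscle, where 28.3% of all probe sets did. Fasn read 7.82, 7.92, 7.23 and 7.73 in B6 and 8.68, 8.77, 9.72 and 9.45 in 129S6, and was 2.79-fold lower in B6 (adjusted p = 0.0264). Thrsp was 2.52-fold lower in B6 (adjusted p = 0.0163), at 6.70 to 7.56 against 8.03 to 9.02. Neither overlapped. Pklr 101472_s_at was 1.56-fold higher in B6, at 7.68 to 8.61 against 7.43 to 7.70, with a slight overlap (adjusted p = 0.0249), while 101471_at, the probe set with clear signal in liver, stood at 5.08 and 5.04.

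With each array's spread of signals as a covariate, none of these calls held: the differences were -0.36 for Fasn (adjusted p = 0.779) and -0.44 for Thrsp (0.621) between strains and -0.09 for Thrsp (0.943) with diet. The strain call of Thrsp held without any one of the 8 arrays, that of Fasn was lost without B6 6 or 7 or 129S6 3 or 4, and that of Pklr 101472_s_at without B6 6 or 7 or 129S6 1, 3 or 4. On high fat the adipocyte list summed to 10.5 to 10.9 in B6 muscle and 10.8 to 11.3 in 129S6 muscle, with 1 of 8 called lower in B6 and Adipoq at 9.20 and 9.70. The erythroid sum was 9.23 to 10.5 in B6 and 12.2 to 12.4 in 129S6, and the myofibre sum 15.1 to 15.8 and 15.9 to 16.0, with 3 of 10 called lower in B6. Their part in the strain difference was not tested.

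On low fat no member differed between the strains in muscle by limma, where 0.231% of all probe sets did. An unadjusted p under 0.05 was found for 706 of all 10833 probe sets and for 5 members, all 5 lower in B6. Fasn read 9.14, 8.08 and 8.08 in B6 and 8.19, 10.48, 9.21 and 10.45 in 129S6 (-1.15, adjusted p = 0.71). Acly read 7.76, 6.66 and 7.41 in B6 and 8.08, 9.50, 7.95 and 9.33 in 129S6 (-1.44, adjusted p = 0.693). The 129S6 arrays 10 and 12 were the highest of their group in Fasn, Acly and Thrsp alike. The diet differences of the strains did not differ for any member in muscle by limma, where 2.93% of all probe sets did. An unadjusted p under 0.05 was found for 2 of the 14 members and for 3773 of all 10833 probe sets.

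The strain difference, averaged over the diets, was then compared between tissues, a comparison added after the data had been seen. In liver it was more towards B6 than in fat for 9 probe sets of 8 genes and less so for none, where 4.09% of all probe sets differed between these tissues. Thrsp gave 2.52 ± 0.41 log2 (adjusted p = 7.6e-05), Fasn 2.30 ± 0.34 (1.39e-05), Pklr 101471_at 1.47 (1.09e-05), Me1 1.44 (0.0058), Gpam 1.33 (0.00866) and Acly 1.29 (0.047). Both Elovl6 probe sets gave 1.25 and 1.19, and Srebf1 0.86 (0.000515). For Pklr 101471_at, signals near the low end of the scale in fat and muscle leave little room for a strain difference there, so its contrasts largely restate the one in liver. The Acly call held in 5 of 30 fits that left out 1 array each, and the other 8 held in all 30. Acly also did not pass after quantile normalization (1.15, adjusted p = 0.126) or with the array spread as a covariate (1.14, 0.0628). No fit of the strain difference between tissues, here or below, took the run of code numbers as a block. Strain is tied to run in liver and fat, and leaving out 1 array cannot show a shift of a whole run.

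Against muscle, liver was more towards B6 for 10 probe sets of 9 genes and less so for none, where 8.11% of all probe sets differed. Thrsp gave 3.03 (adjusted p = 2.84e-06), Fasn 2.89 (1.51e-07), Me1 2.17, Acly 1.96, Elovl6 1.81 and 1.73, Pklr 101471_at 1.36, Mid1ip1 95135_at 1.30 (0.044), Gpam 1.13 (0.021) and Srebf1 0.88 (0.000312). The Mid1ip1 call held in 10 of 31 fits that left out 1 array each. After quantile normalization neither Gpam (0.85, adjusted p = 0.0662) nor Mid1ip1 95135_at (1.21, 0.0717) passed, nor did they with the array spread as a covariate (0.58, 0.266 and 0.51, 0.5). Between muscle and fat no member differed by limma, where 7.43% of all probe sets did. An unadjusted p under 0.05 was found for 4 of the 14 members and for 2514 of all 10833 probe sets. The liver arrays enter both of the first comparisons, so these do not stand apart from each other.

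**Figure D4:**
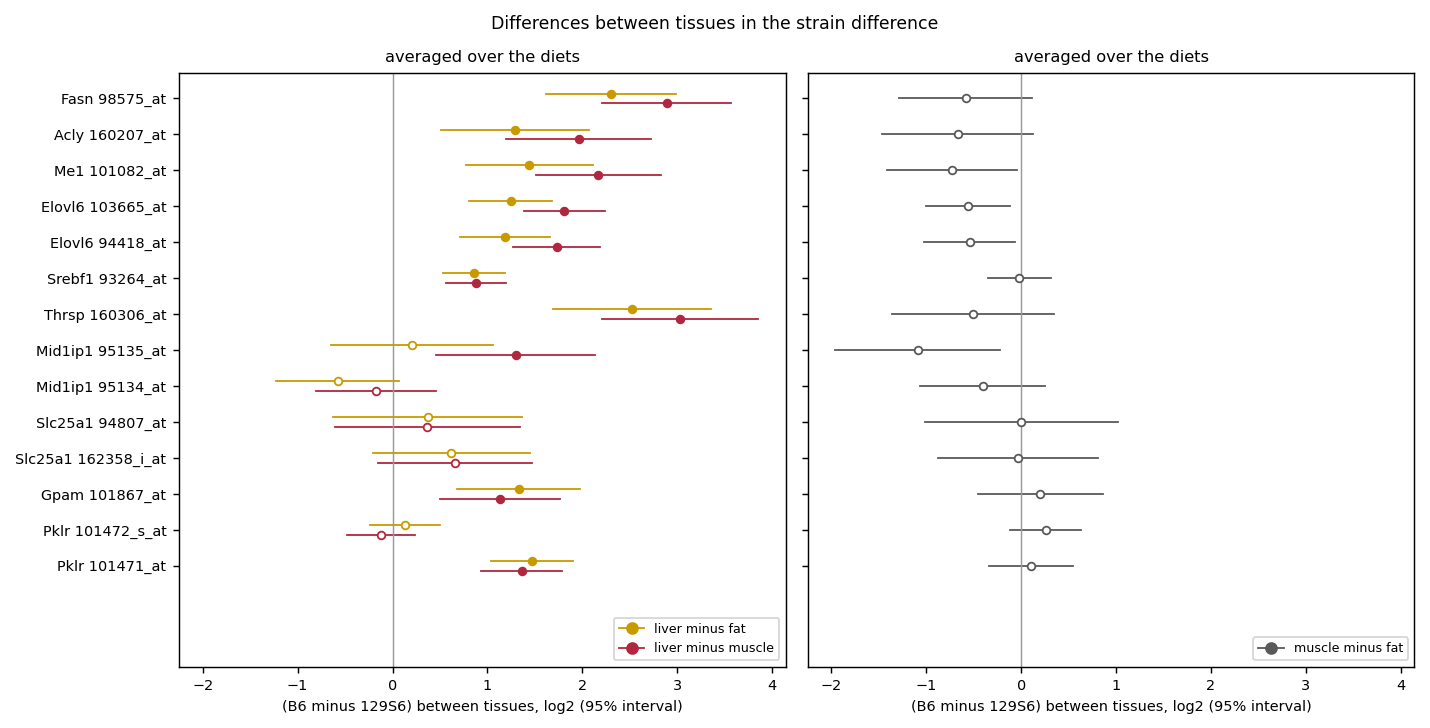
Difference between tissues in the B6 minus 129S6 difference, in log2 and averaged over the diets, for each member probe set with its 95% interval; filled points have an adjusted p under 0.05. For liver minus fat 9 points are filled, for liver minus muscle 10, all above 0, and for muscle minus fat none.

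The 2 probe sets of a gene did not always give 1 answer. For Elovl6 they moved together between strains, and the B6 diet call rested on 94418_at. For Mid1ip1, 95135_at and 95134_at had opposite called diet differences in B6 liver, and opposite signs between strains on low fat. For Pklr, 101471_at ranged from 4.51 to 5.40 in all muscle and fat arrays and from 6.22 to 9.49 in liver, while 101472_s_at, whose suffix marks probes shared with other transcripts, ranged from 7.21 to 8.81 over all tissues. For Slc25a1, 94807_at read 8.31 in 129S6 low-fat liver 11 against 9.84 to 9.94 in the rest of its group, and 7.87, 8.01 and 7.86 in fat arrays B6 high-fat 7 and 129S6 high-fat 12 and 13. These 4 arrays are those of liver and fat with a Gapdh signal above 3. Mid1ip1 95134_at read 6.63 in that liver and 6.32, 6.66 and 6.91 in those fat arrays, each the lowest of its group or next to it. Whether degraded RNA set these values was not tested. Without those arrays Mid1ip1 95134_at differed between the strains in low-fat liver with B6 lower (-0.62, adjusted p = 0.00175).

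**Figure D5:**
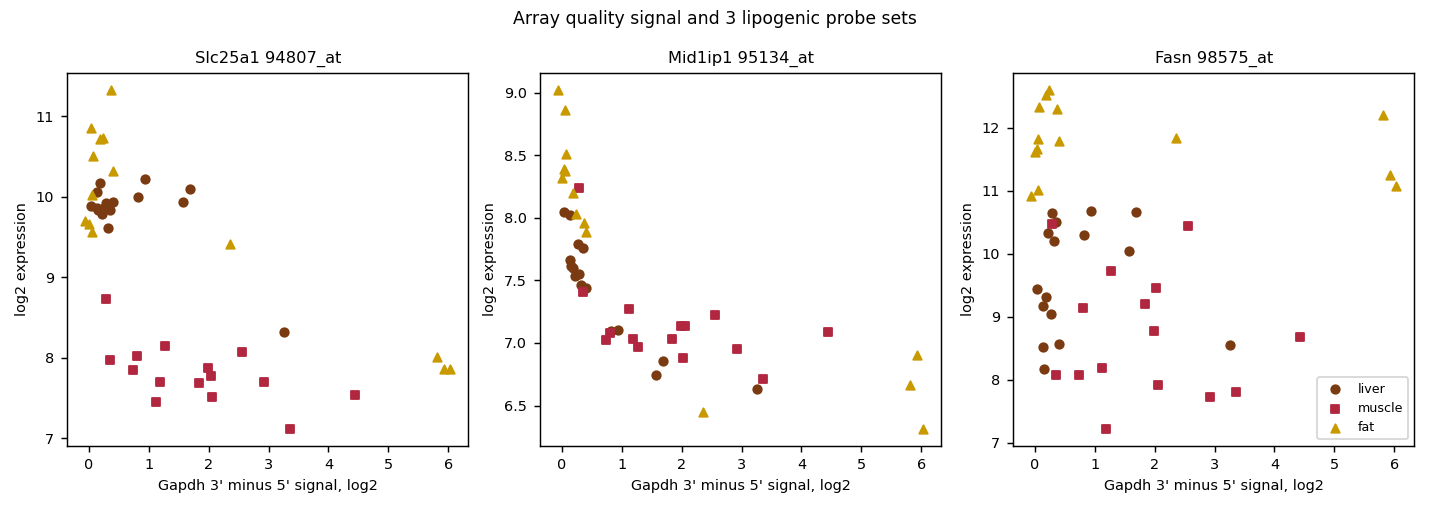
Log2 signal of Slc25a1 94807_at, Mid1ip1 95134_at and Fasn against the 3′ minus 5′ Gapdh signal of the same array, in log2, by tissue. In liver and fat, Slc25a1 94807_at reads 7.86 to 8.31 on the 4 arrays with a Gapdh signal above 3. Mid1ip1 95134_at reads 6.32 to 6.91 on the same 4, and Fasn in fat reads 11.08 to 12.20 there.

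Likeness to Fasn was measured as Pearson's r with its probe set over the 12 group means, for the brightest probe set of each of the other 8250 genes, as a description. Thrsp ranked 2 with r = 0.951, Acly 39 (0.904), Mid1ip1 106 (0.866) and Srebf1 369 (0.787). Me1 (0.693), Slc25a1 (0.668), Elovl6 (0.559) and Gpam (0.502) followed, and Pklr, through 101472_s_at, had r = -0.483. The 5 genes outside the set with the highest r were Dhrs7 (0.954), Ifi27 (0.950), Mgll (0.950), G0s2 (0.945) and Mlec (0.941). The 12 points share 3 tissues, and much of each r is the order of the tissues.

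Other genes of the pathway were counted in 5 lists, with the brightest probe set of each gene. In liver on low fat, where 12.0% of all probe sets differed in either direction, B6 was higher for 3 of 10 measured genes of glucose and acetyl-CoA supply (Cs, citrate synthase, by 0.81, adjusted p = 2.8e-05, and Pcx, pyruvate carboxylase, by 0.53) and lower for none. It was higher for 3 of 5 genes of NADPH supply (Taldo1, of the pentose phosphate pathway, by 0.67, and Idh2 by 0.56) and for 3 of 7 of carboxylation, desaturation and elongation, again lower for none. Of the last, Scd1, the stearoyl-CoA desaturase, differed by 1.85 log2 (adjusted p = 2.8e-05) and Hsd17b12 by 0.87 (0.0305). Of 9 glycerolipid genes 2 were higher, Gpd1 by 0.87 and Acsl5 by 0.76. Of 18 regulators 1 was higher, Mbtps1, the protease that activates SREBPs, by 0.31, and 3 were lower, among them Rxra (-0.68) and Thrb (-0.57). The list medians were 0.24, 0.56, 0.47, -0.01 and -0.05 against -0.02 over all genes.

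On high fat, where 4.24% of all probe sets differed, B6 livers kept higher calls for Cs (0.59, adjusted p = 0.000869) and Scd1 (1.26, 0.00189), added Hk2 (1.00, 0.00545), and had 1 lower regulator, Nr0b2. With diet in 129S6 liver (0.111% of all probe sets), Scd1 rose by 1.20 log2 (adjusted p = 0.0333) and no other gene of the 5 lists passed. In B6 liver (16.2%) Hk2, Sp1 and Rxra rose, and Taldo1, Elovl3, Gpd1 and Mbtps1 fell. The liver diet differences of Hk2 (1.02), Taldo1 (-0.61) and Gpd1 (-0.60) differed between the strains, given as B6 minus 129S6. In fat, Scd2, a stearoyl-CoA desaturase, rose with diet by 1.14 in B6 (adjusted p = 0.0212) and 1.92 in 129S6 (0.000997), Pcx was lower in B6 on low fat (-1.37, 0.0428), and no other listed gene passed in any fat comparison. In muscle no listed gene passed for diet in 129S6 or for strain on low fat. In B6 muscle with diet, where 26.0% of all probe sets differed and the high-fat arrays had the narrow spread, 2 of 5 NADPH genes fell, Taldo1 by 1.73 and Idh2 by 1.82. Of 10 genes of the acetyl-CoA list 2 fell, the glucose transporter gene Slc2a4 by 2.03 and Cs by 1.91, and 1 rose, Slc2a2 by 0.61. In the other lists Irs1 (0.83), Scd2 (0.80), Dgat1 (0.59), Nfyb (0.56) and Agpat1 (0.31) rose, and Lpin1 (-1.41) and Akt2 (-0.94) fell. Between the strains on high fat, 28.3% of all probe sets differed and the same arrays enter. There B6 muscle was lower for Taldo1 (-1.89), Idh2 (-1.66), Cs (-2.26), Slc2a4 (-1.38), Lpin1 (-1.19) and Mbtps1 (-0.48), among others. It was higher for Sp1 (1.69), Irs1 (0.81), Dlat (0.68), Slc2a2 (0.65), Dgat1 (0.47), Scd2 (0.43) and Agpat1 (0.28).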

How the data were processed

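The data are Affymetrix MG-U74Av2 arrays of pooled mouse RNA. The deposited table holds log2 values that the authors made with RMA (background correction, quantile normalization and probe summary), per the submitters' processing notes; its version and settings have no statement in the labels. The values were used as deposited, with no further normalization, and the precision is limited by the 3 or 4 arrays of a group. Whether pools of a group were separate animals throughout is not stated, so p-values measure the spread between these pools.

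Groups came from the tissue, strain and diet labels. Of 12488 probe sets, 66 controls, 396 with several symbols and 1193 with none were left out. Symbols of 10817 of the 10833 kept were updated through Entrez ID and 16 were kept as annotated. Group means were fitted with limma 3.58.1 (R 4.3.3; lmFit and eBayes, two-sided, Benjamini-Hochberg over all 10833 probe sets, threshold 0.05), over the 4 groups of a tissue or, between tissues, over all 45 arrays. The fits were tested on simulated data. Plots used Python 3.11.15 with matplotlib 3.10.9.

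Named are every member probe set, up to 2 listed genes each way in a comparison by adjusted p, and the 5 genes most like Fasn. Members and lists were chosen with earlier results of these data known. The alternatives tried were other probe set filters, quantile normalization, a trended prior, fewer groups, runs of code numbers as blocks, Gapdh and array spread as covariates, and arrays left out.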

Additional observations from a re-analysis of the deposited data

Results flagged for a closer look

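The liver diet difference, B6 minus 129S6, differed between the strains for Mid1ip1 95135_at (-1.51 log2), Srebf1 (-0.87), Fasn (-0.80) and Slc25a1 162358_i_at (-0.74), by a contrast within the fit. The strain difference, B6 minus 129S6, was larger in liver than in fat for Thrsp (2.52 log2), Fasn (2.30), Pklr 101471_at (1.47), Me1 (1.44), Gpam (1.33), Acly (1.29), Elovl6 103665_at (1.25) and 94418_at (1.19), and Srebf1 (0.86). It was larger in liver than in muscle for Thrsp (3.03), Fasn (2.89), Me1 (2.17), Acly (1.96), Elovl6 103665_at (1.81) and 94418_at (1.73), Pklr 101471_at (1.36), Mid1ip1 95135_at (1.30), Gpam (1.13) and Srebf1 (0.88).

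In 12 of 126 groups of 4 arrays, each for 1 probe set, a single array stood apart from the other three by Dixon's criterion. Chance flags about 1 in 20 groups. In liver these were Fasn in 129S6 low-fat 5 (8.17), Me1 (9.07) and Pklr 101471_at (7.27) in B6 high-fat 13, Thrsp in B6 high-fat 14 (10.64), Elovl6 94418_at in 129S6 high-fat 10 (5.47) and Slc25a1 94807_at in 129S6 low-fat 11 (8.31). In muscle they were Srebf1 (8.49) and Mid1ip1 95135_at (5.31) in 129S6 low-fat 9, and Elovl6 94418_at in B6 high-fat 5 (5.04) and 129S6 high-fat 3 (5.09). In fat they were Gpam (10.89) and Slc25a1 162358_i_at (6.04) in B6 high-fat 7. Of these arrays, liver 129S6 low-fat 11, muscle B6 high-fat 5 and fat B6 high-fat 7 had a Gapdh 3′ minus 5′ signal above 3.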

How the results depend on the processing

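Across the alternatives other than leaving out an array, the 88 member results that passed kept their direction and call in 604 instances of a result under an alternative, kept the direction without passing in 79 and reversed in 1. Leaving out 1 array at a time ended the call in 126 instances and reversed 0. Where the cause of a change is not named, it was not tested.

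Counts of member probe sets passing, with 1 array left out at a time, ran as follows. In liver they were 1 to 3 for diet in B6 (4 with all arrays), 0 to 2 for diet in 129S6 (2), 11 to 12 for strain on low fat (11), 5 to 7 on high fat (6) and 2 to 5 for the difference of the diet differences (4). In muscle they were 0 to 3 for diet in B6 (1), 1 to 5 for strain on high fat (3), 0 to 1 for the difference of the diet differences (0) and 0 elsewhere. In fat they were 0 to 2 for diet in B6 (2), 0 to 1 in 129S6 (0), 0 for strain on low fat (1) and 0 elsewhere. Between tissues they were 9 to 10 for fat minus liver (10), 13 to 14 for fat minus muscle (13) and 12 to 14 for liver minus muscle (12), and for strain between tissues 8 to 9 for liver and fat (9), 9 to 10 for liver and muscle (10) and 0 to 2 for muscle and fat (0).

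With the brightest probe set of each gene, 1 passed for diet in B6 liver. Quantile normalization left 1 for diet in 129S6 liver and 1 for the liver difference of the diet differences, and a trended prior left 1 for the former. With only the groups compared, the counts were 0 for diet in 129S6 liver, 5 for strain in high-fat muscle, 0 for diet in B6 fat, 1 in 129S6 fat and 6 for strain in low-fat fat. The run of code numbers as a fixed block, which liver allowed for diet in 129S6 and strain on high fat alone, gave 1 for strain in high-fat liver and 0 for strain in low-fat fat. As a random block it gave, in liver, 0 for diet in B6, 1 for diet in 129S6, 5 for strain on low fat, 2 on high fat and 0 for the difference of the diet differences, and 2 for strain in low-fat fat. The array spread as a covariate gave 2 for diet in B6 liver, 1 of them Gpam, which had not passed, 0 for diet in B6 muscle, 1 and 0 for strain in muscle on low and high fat, 0 for diet in B6 fat and 0 for strain in low-fat fat. The Gapdh signal as a covariate gave 2 for diet in B6 muscle, 1 for the muscle difference of the diet differences, 5 for strain in low-fat fat and 1 for strain between muscle and fat. Without the arrays with a Gapdh signal above 3, the counts were 1 for diet in 129S6 liver, 2 for diet in B6 muscle, 4 for diet in B6 fat, 5 for strain in low-fat fat and 1 for strain between muscle and fat.

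Replicate numbers are shared between tissues only. Over 12 pairs of same-numbered samples, deviations from the group means correlated from -0.40 to 0.28 and 2 pairs were over 0.1. Deviations in different tissues need not be alike within an animal, so this cannot settle whether the numbers pair the samples. The main fits treated the samples as unpaired. With the replicate number as a block, 3 member probe sets passed for fat minus liver, 9 for fat minus muscle and 7 for liver minus muscle, and Pklr 101472_s_at for liver minus muscle reversed to -0.11 (adjusted p = 0.702).

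The arrays give no counts, and members near the low end of the scale, such as Pklr 101471_at in muscle and fat, cannot show a further fall.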
